A study of Homo sapiens with 32 samples.

Results

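The comparison described here set IGF2BP2 knockout cells against their parental cells without stress. It used 10 of the 32 libraries of the series: 6 from IGF2BP2 knockout clones and 4 from parental cells, all labelled as control (DMSO, the solvent) in their titles. The cells were HCT116, a human colorectal carcinoma line, and every library, parental included, came from a derivative carrying doxycycline-inducible OsTIR1, the plant F-box protein of the auxin degron system (Tet-OsTIR1-PURO in the labels). The knockout arm held 3 clones, B7, F6 and G6, with 2 libraries each. Each clone grew from 1 sorted GFP-positive cell after transient transfection of Cas9 and a guide RNA. The parental arm held 2 samples with 2 libraries each, which the labels' protocol counts as 4 replicates. RNA was poly(A)-selected and sequenced, and the deposited values were whole-number counts per gene. The protocol states the DMSO dilution (1:1000) for the parental cells and gives none for these clones. The same holds for the dose and time of tunicamycin in the stressed libraries used below for comparison. Each clone is 1 line, so 6 knockout libraries stand for 3 clones, and the p-values below measure the spread between these libraries and clones, not between independent knockout populations.

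IGF2BP2 belongs to a small family of RNA-binding proteins that attach to messenger RNAs in the cytoplasm through RRM and KH domains. The family is known for prolonging the life of bound transcripts and for shaping their transport and translation, and its members have been described as readers of the m6A mark. In the adult, IGF2BP2 is the more widely expressed member, while IGF2BP1 and IGF2BP3 are mainly fetal proteins that many tumours, colorectal ones included, express again. Reported targets include mRNAs of growth control such as MYC, IGF2, HMGA1 and CCND1.

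The clones came from 2 different guides, which matters here because clones that share a guide can be set beside a clone that does not. Both guides are shown 5′ to 3′ in lower case, followed in capitals by the NGG motif (PAM) next to the matching site in the GENCODE 29 transcript of IGF2BP2.
Clones B7 and F6: gagctgccggaggtcgtcggCGG
Clone G6: aggcgtagccggacttcagcAGG
The guide of B7 and F6 matched chr3:185824895-185824914 and that of G6 matched chr3:185824837-185824856 (GRCh38), both on the plus strand, while IGF2BP2 runs on the minus strand. Both sites lie in coding sequence of exon 1 of 16. Cas9 is taken to cut 3 bases from the PAM, which falls within codon 17 for B7 and F6 and within codon 36 for G6. In the paralogs, the closest place for the guide of B7 and F6 had 7 mismatches in IGF2BP3 and 7 in IGF2BP1. The guide of G6 came closer to both, with 3 mismatches in IGF2BP1 at a place with no NGG motif and 4 in IGF2BP3 at a place followed by one. The IGF2BP3 place is shown with its mismatched bases in capitals.
IGF2BP3 place for the G6 guide: aCgcgtagccAgTcttcaCc
Counted from the 5′ end of the guide, the substitutions were G2C, G11A, A13T and G19C. Among other GENCODE 29 transcripts, a place with at most 3 mismatches and an NGG motif was present in 3 genes for the guide of B7 and F6 and in 2 for that of G6. Only SMAP2, an Arf GTPase-activating protein gene with 3 mismatches to the guide of B7 and F6, passed the filter, and its log2 fold change was -0.12 in B7 (not called) and -0.21 in F6 (adjusted p = 0.0332 by edgeR). Introns and intergenic sequence were not searched. The files hold gene counts, so edits at either place were not analysed here.

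The 10 libraries held 19103176 to 24913021 counts. The replicate number marked the largest single component of a principal component analysis. Component 1 (30.9% of the variance) separated libraries numbered 1 from those numbered 2, and the number is therefore a term in the fits. Component 2 (21.9%) separated clones B7 and F6. Component 3 (18.5%) placed B7 and F6 on the same side (-16.5 to -9.9). G6 (17.6 and 10.6) and the parental libraries (4.2 to 7.5) lay on the other. For the 2 control libraries of clone G6 the treatment characteristic says tunicamycin, against their titles, and the pooled counts, the gene lists and the genes next in rank are given with and without this clone. In these libraries HSPA5, the endoplasmic reticulum chaperone BiP, stood at 992 and 822 CPM (counts scaled by TMM to library size), against 835 to 1109 CPM in the parental control libraries and 9671 and 9907 CPM in the tunicamycin libraries of the same clone. DDIT3 (CHOP) stood at 2.92 and 2.43 CPM against 214 and 215 CPM. Epithelial markers summed to 3711 to 5081 CPM in parental and 3167 to 5622 CPM in knockout libraries. The 9 blood and endothelial markers together reached 0.756 CPM at most, and none passed the filter on low counts.

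IGF2BP2 mRNA fell in all 3 clones but did not vanish. In parental libraries it stood at 187, 163, 195 and 159 CPM, and in knockout libraries at 81.3 CPM (lowest), 86.0 CPM (median) and 92.8 CPM (highest). The 2 groups were far apart, and the 3 clones were close to each other. The difference on the log2 scale was -1.02 (SE 0.053, 95% interval -1.14 to -0.91), with an adjusted p of 7.87e-06 in edgeR's quasi-likelihood (QL) test, where Benjamini-Hochberg adjustment covers all genes tested. By clone, the log2 fold change was -1.10 in B7, -0.93 in F6 and -1.04 in G6, so the clones with a shared guide were no closer to each other than to G6. In the tunicamycin libraries of the same lines it was -0.86. The deposited values count reads over the gene, and the part of the mRNA that carries an edit cannot be told apart from the rest.

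Only 3 of 14564 genes tested (0.0206%) passed an adjusted p of 0.05 when the 6 knockout libraries were set against the 4 parental ones: IGF2BP2 itself, FSTL3 and FLOT1, all lower in knockout. None was higher. An unadjusted p under 0.05 was reached by 1270 genes, 665 higher and 605 lower, and the median absolute log2 fold change over all genes was 0.079. Without clone G6, the clone with the conflicting treatment label, 161 of 14256 genes were called (1.13%), 85 higher and 76 lower, and these 3 were among them. The clones left in that fit, B7 and F6, share a guide. G6 was also the clone nearest to the parental samples (median absolute log2 difference 0.086 and 0.092, against 0.117 to 0.122 for B7 and F6). Why the count rose was not tested. Without F6 the count was 36, and without B7 it was 1.

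FSTL3 encodes a secreted glycoprotein that binds and neutralises activin. It stood at 31.0, 30.2, 33.6 and 29.9 CPM in parental libraries, and at 20.3, 22.5 and 24.1 CPM (lowest, median, highest) in knockout libraries. The groups did not overlap, and both libraries of each clone lay below every parental library. The log2 fold change, -0.49 with an SE of 0.060, passed the threshold (adjusted p = 0.0237, edgeR QL test), with -0.47 in B7, -0.60 in F6 and -0.40 in G6. The same 6 knockout libraries were also set against 6 IGF2BP3 knockout libraries, with -0.43 for FSTL3 (adjusted p = 0.0357 by edgeR). That value is no independent check, since the knockout libraries are those in which FSTL3 was found low, and with counts summed per line that comparison called 1 gene in all. In tunicamycin the difference from parental cells was -0.41 and was not called (adjusted p = 0.376 by edgeR). The call counts the 2 libraries of a clone as separate replicates: with counts summed per line FSTL3 had -0.49 and was not called (adjusted p = 0.993 by edgeR), and with line as a random effect it had -0.49 (adjusted p = 0.160 by limma-voom).

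FLOT1 encodes flotillin 1, a scaffold protein of membrane microdomains. It stood at 58.3, 45.3, 62.2 and 46.8 CPM in parental libraries and at 35.2, 42.7 and 49.0 CPM (lowest, median, highest) in knockout libraries. The groups overlapped as a whole and separated within each replicate number: the libraries numbered 1 read 58.3 and 62.2 CPM against 47.4, 49.0 and 48.4 CPM, and those numbered 2 read 45.3 and 46.8 CPM against 38.0, 35.2 and 36.6 CPM. The log2 fold change was -0.32 with an SE of 0.040 (adjusted p = 0.0237, edgeR QL test), and its call depends on the replicate term: without it FLOT1 was not among the 2 genes called, IGF2BP2 and FSTL3. With line as the unit FLOT1 also lost its call, with -0.34 for summed counts (adjusted p = 0.993 by edgeR) and -0.32 with line as a random effect (adjusted p = 0.221 by limma-voom). In replicate number 1 alone or number 2 alone, neither FSTL3 nor FLOT1 was called. Both FSTL3 and FLOT1 lost their calls when clone B7, either parental sample or any 1 parental library was left out, and also without library 1 of B7, either library of F6 or library 2 of G6 (1 gene called in each of these fits, IGF2BP2). Without library 1 of G6, FLOT1 alone lost its call.

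**Figure D1:**
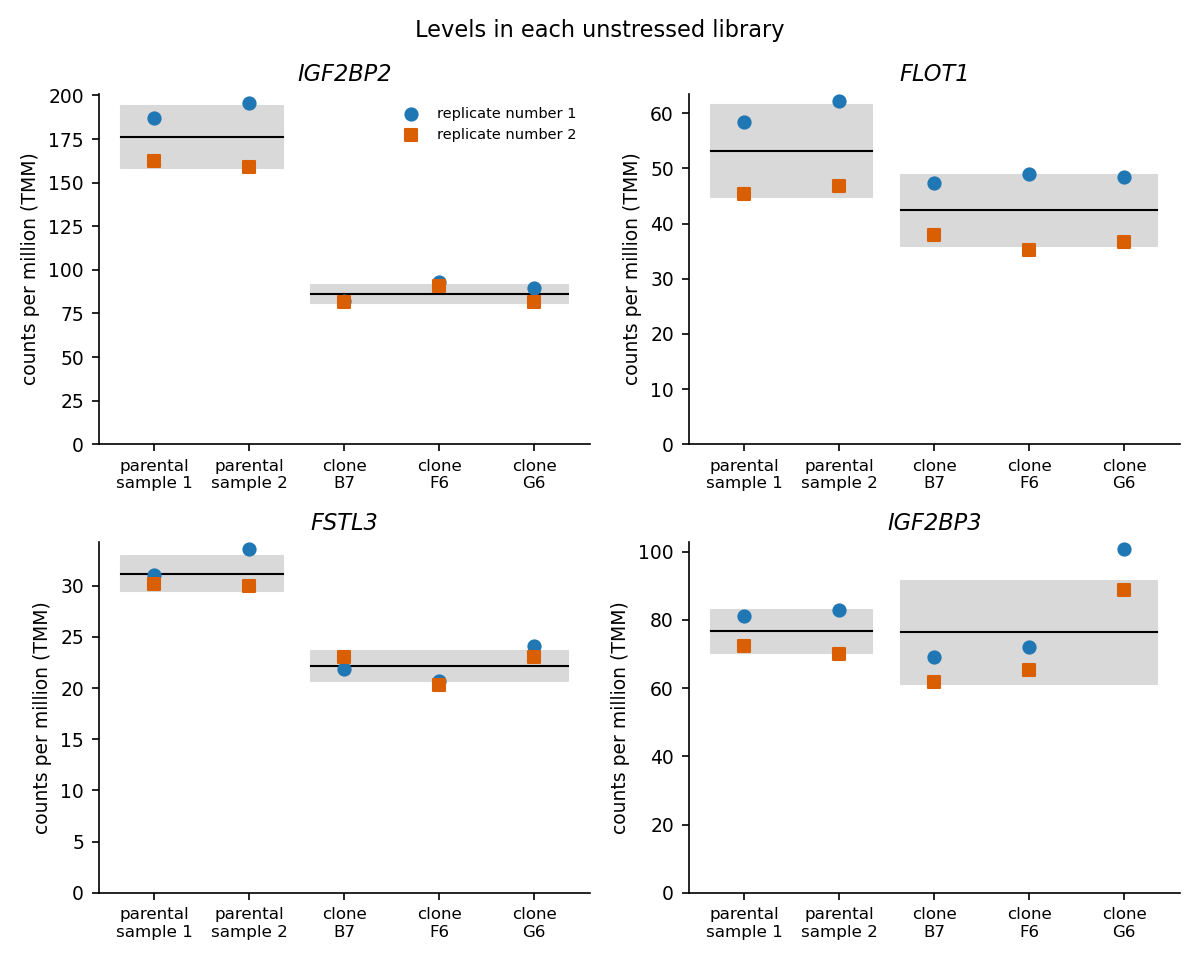
CPM of IGF2BP2, FLOT1, FSTL3 and IGF2BP3 in each unstressed library (points, shaped by replicate number), with the mean (line) and 1 SD (grey band) of the 4 parental and 6 knockout libraries. IGF2BP2 sits between 159 and 195 CPM in parental and between 81.3 and 92.8 CPM in knockout libraries, FLOT1 separates only within a replicate number, and IGF2BP3 is highest in clone G6.

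Neither paralog was called in the pooled comparison. IGF2BP3 averaged 76.6 ± 6.36 CPM (SD, n = 4) in parental and 76.3 ± 15.2 CPM (SD, n = 6) in knockout libraries. The log2 fold change was -0.00079 with a 95% interval of -0.26 to 0.26 (adjusted p = 0.999 by edgeR). That mean hides opposite values: IGF2BP3 was at 69.1 and 61.9 CPM in B7, 72.1 and 65.3 CPM in F6, and 101 and 88.6 CPM in G6, against 70.1 to 82.8 CPM in parental libraries. Against the parental samples it was lower in B7 (-0.22) and F6 (-0.15) and higher in G6 (0.31), each past the threshold in the fit by clone. In tunicamycin G6 was again highest, with 99.8 and 90.9 CPM against 61.6 to 72.3 CPM in B7 and F6. There the difference from parental was past the threshold in G6 (0.40) and not in B7 (-0.15, adjusted p = 0.102 by edgeR) or F6 (-0.02, adjusted p = 0.873 by edgeR). IGF2BP1 stayed below the filter, at 0.0911 to 0.638 CPM over the 10 libraries.

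Of the 5 tested genes on each side of IGF2BP2 on chromosome 3, none passed the threshold in the pooled fit (log2 fold changes -0.13 to 0.33). SENP2, a SUMO protease gene 10188 bp away, had -0.08, and TRA2B, a splicing factor gene, had -0.08. By clone, some of these genes were called. SENP2 was lower in B7 (-0.21, adjusted p = 0.0121 by edgeR), and so was TMEM41A, a membrane protein gene (-0.18, adjusted p = 0.0499 by edgeR). LIPH, a lipase gene, was higher in F6 (0.93). ETV5, an ETS transcription factor gene, was lower in F6 (-0.63) and higher in G6 (0.24, adjusted p = 0.0328 by edgeR). In the tunicamycin libraries, SENP2 (0.01) and TMEM41A (-0.01) in B7 and ETV5 in G6 (0.009) were not called. There LIPH (0.66) and ETV5 (-0.46) in F6 were called in the same direction as unstressed.

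Behind these 3, the 17 genes with the next smallest p among genes with a mean count of at least 100 had small differences, 12 lower and 5 higher, with log2 fold changes from -0.60 to 0.51. None passed the threshold (adjusted p from 0.0871 to 0.422 in the edgeR QL test), and for 10 of the 17 the knockout and parental libraries did not overlap. Over all genes tested, the share without overlap was 0.467% above and 0.59% below. Since the 17 were picked by their p, their counts only describe them. Without clone G6, 8 of the 17 were called, 2 higher and 6 lower, with log2 fold changes over the 17 from -0.78 to 0.47. The 8 were SERPINE2, CFD, JARID2, EGFR, CDC20 and NES, all lower, and SCAMP1 and MRE11, both higher. SERPINE2, an inhibitor of serine proteases, stood at 87.4, 76.0, 90.6 and 80.8 CPM in parental libraries and at 58.8 to 73.4 CPM in knockout libraries (log2 fold change -0.32). NES, which encodes the intermediate filament nestin, averaged 24.8 ± 1.24 CPM (SD, n = 4) in parental libraries against 12.6 to 21.1 CPM in knockout libraries (-0.60), lowest in B7 and F6. JARID2, a partner of the Polycomb complex PRC2, stood at 45.4 to 49.4 CPM against 34.9 to 39.9 CPM (-0.32). EGFR, the receptor of epidermal growth factor, stood at 221 to 236 CPM against 193 to 209 CPM (-0.19). PEG10, an imprinted gene derived from a retrotransposon, had -0.51, and CDC20, an activator of the anaphase-promoting complex, had -0.16. Upwards, CCNG1 (cyclin G1) averaged 112 ± 3.47 CPM (SD, n = 4) in parental libraries against 122 to 141 CPM in knockout libraries (0.23). SAMD4A, a translational repressor of the Smaug family, averaged 24.5 ± 1.66 CPM (SD, n = 4) against 28.4 to 42.0 CPM (0.51). MRE11, a DNA double-strand break repair gene, had 0.31. In IGF2BP3 knockout against the same parental libraries, SERPINE2 (-0.28), JARID2 (-0.33), EGFR (-0.37) and PEG10 (-0.55) were also called lower. NES (-0.27), CDC20 (0.03), CCNG1 (0.06), SAMD4A (-0.13) and MRE11 (0.16) were not called there. Directly between the knockouts, JARID2 (0.01), PEG10 (0.03), SERPINE2 (-0.04) and EGFR (0.18) were not called. Their lower level was thus not particular to IGF2BP2 knockout.

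Over all genes, every knockout library lay above every parental library for 68 genes (0.467%) and below for 86 (0.59%). When libraries were compared only within their replicate number, 298 genes were above and 414 below in both numbers. Without clone G6, the 4 remaining knockout libraries lay above every parental library for 533 genes (3.66%) and below for 444 (3.05%).

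More genes were called when each clone was set against the parental samples by itself. In a fit with the 5 lines and the replicate number as terms, B7 had 2581 genes called (17.7% of 14564), 1326 higher (9.1%) and 1255 lower (8.62%). F6 had 2509 (17.2%), 1322 higher (9.08%) and 1187 lower (8.15%), and G6 had 411 (2.82%), 155 higher (1.06%) and 256 lower (1.76%). These counts and the pooled count of 3 come from fits of different form. The spread behind the pooled test holds the differences between clones, whereas the fit by line has only the spread between repeat libraries of a line, so part of the gap is set by the model. The 3 clones are set against the same parental libraries. The clones also differed directly from each other, with 4407 genes called among them (30.3%), whereas the 2 parental samples had 0 genes called between them (0%) and 484 with an unadjusted p under 0.05. These tests are unlike, since the first covers 3 lines and the second 2 samples. No library is labelled as an unedited single-cell clone, so the 0 does not measure the spread between unedited clones. Knockout and clonal origin cannot be told apart in these comparisons. The numbers depend on the replicate term: without it the counts were 594, 448 and 12 for B7, F6 and G6, and 1154 among the clones. With 2 libraries per clone, leaving out 1 library of the clone brought B7 to 1042 or 1501 genes and F6 to 945 or 1253. Without parental libraries one at a time, G6 ranged down to 180 genes (without library 1 of parental sample 1), with 197 without library 2 of that sample and 239 without library 1 of sample 2, and F6 was at 1670 without library 2 of parental sample 1.

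**Figure D2:**
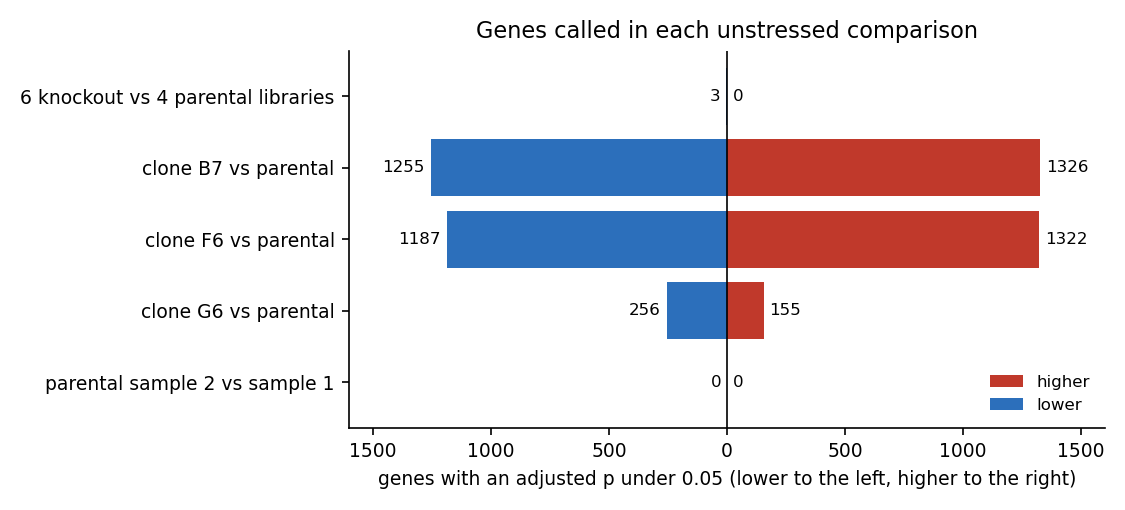
Genes with an adjusted p under 0.05 by edgeR in each unstressed comparison, lower to the left and higher to the right of 0. The pooled comparison has 3 lower and 0 higher, clones B7 and F6 have more than 1180 in each direction, and the 2 parental samples have 0.

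The distance between lines gave the same picture on the expression scale. The median absolute log2 difference over genes was 0.060 between the parental samples, 0.086 and 0.092 between G6 and the parental samples, and 0.117 to 0.122 for B7 and F6. Between clones it was 0.145 for B7 and F6, which share a guide, 0.132 for B7 and G6, and 0.129 for F6 and G6. More than a 2-fold difference was present for 233 genes between B7 and F6 and for 1 gene between the parental samples.

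The profiles of the clones were seen again in other libraries. The tunicamycin libraries of the same clones were set against the tunicamycin libraries of the parental samples, which share no library with the unstressed ones. Dose and time of tunicamycin are stated for the parental cells and not for these clones, so equal treatment could not be checked. Of the genes tested in both, B7 had 2571 calls unstressed and 1905 in tunicamycin, and 1383 were called in both in the same direction (53.8% and 72.6% of each list). F6 had 1344 in both (53.9% of 2493 and 75.3% of 1786), and G6 had 158 (38.5% of 410 and 46.9% of 337). In each of the 3 clones, 0 genes were called in opposite directions.

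The genes that differed most between the clones show how far apart they were. SEMA3A, a secreted axon guidance cue, stood at 37.2 to 56.1 CPM in parental libraries (46.0 ± 9.96, SD, n = 4), at 85.9 and 77.7 CPM in B7, 6.91 and 5.62 CPM in F6, and 129 and 140 CPM in G6. Clones B7 and G6 were above the parental range and F6 was far below it, which gave a pooled log2 fold change of 0.71 that was not called (adjusted p = 0.804 by edgeR). PXDN, the peroxidase that crosslinks collagen IV, had 0 counts in both F6 libraries. Against parental libraries at 7.08 ± 1.81 CPM (SD, n = 4) this is at least 100-fold lower, taking a floor of 3 counts over both libraries. B7 and G6 lay near the parental level, at 10.4 and 7.25 CPM and at 6.42 and 5.79 CPM. DCLK1, a doublecortin-like kinase used as a tuft cell marker, was at 4.30 to 5.67 CPM in parental libraries and at 0.188 and 0.142 CPM in F6. FGF9, a fibroblast growth factor, was at 11.1 to 11.9 CPM and at 0.752 and 1.23 CPM in F6. ZNF134, a zinc finger gene, was at 8.05 to 11.1 CPM and at 0.721 and 0.643 CPM in B7. TARID, an antisense long noncoding RNA whose reads may not be separable from genes on the other strand, was at 2.18 to 3.43 CPM in parental libraries, at 6.35 and 9.23 CPM in B7, 0.235 and 0.0944 CPM in F6, and 8.57 and 12.2 CPM in G6. In tunicamycin the low clone was again low for each of the 6 genes: SEMA3A, for example, was at 5.90 and 5.35 CPM in F6 and at 147 and 137 CPM in G6.

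**Figure D3:**
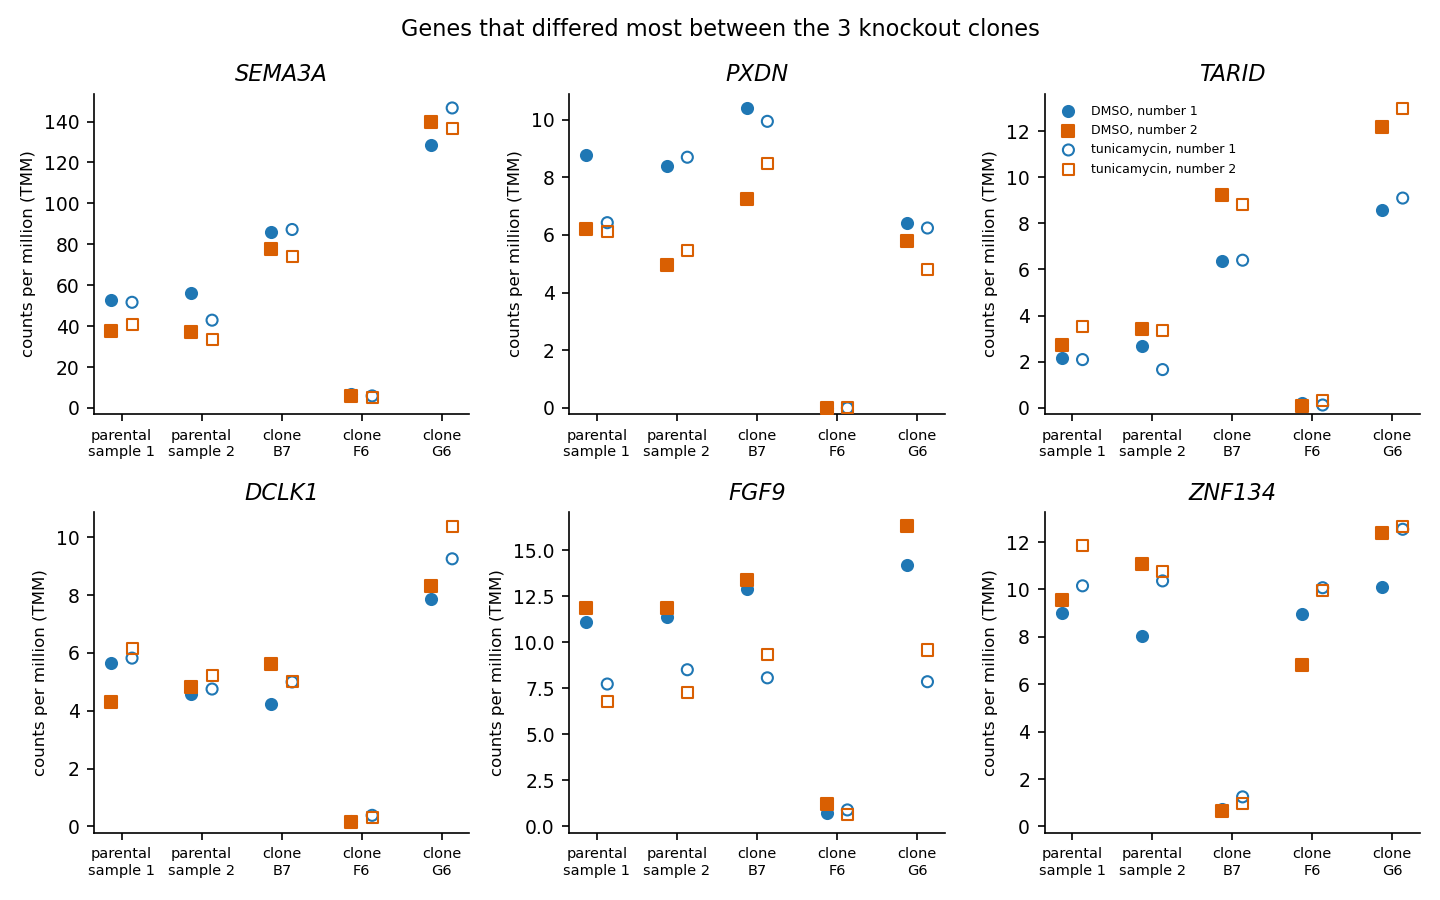
CPM of the 6 genes with the largest range between clones, in unstressed (filled) and tunicamycin (open) libraries of the 2 parental samples and 3 clones, shaped by replicate number. Clone F6 is lowest for 5 of the 6 genes and clone B7 for ZNF134, under both treatments.

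Epithelial markers were mostly higher in F6 and, where called, mostly lower in B7 and G6. Of 10 epithelial markers tested, 7 were called higher in F6 and 0 lower, against 1 higher and 5 lower in B7, and 0 higher and 4 lower in G6, and 9 of the 10 were called among the clones. Over all genes, 9.08% were called higher in F6, 8.62% lower in B7 and 1.76% lower in G6, and 30.3% were called among the clones. The 1 higher in B7 was the splicing regulator gene ESRP1, which lies on chromosome 8, where 359 of 503 tested genes were called higher in that clone. CDH1 (E-cadherin) read 25.3, 21.5, 28.4 and 22.4 CPM in parental libraries, 74.9 and 57.7 CPM in F6, and 21.4 and 16.5 CPM in G6, and in B7 its log2 fold change was 0.06. In F6 it was higher by 1.45 on the log2 scale, the tight junction gene CLDN4 by 1.08, and the epithelial transcription factor gene ELF3 by 1.11. The mesenchymal intermediate filament gene VIM was lower by -4.21 in F6, from a low parental level of 2.32 CPM, and by -0.77 in B7. The repressor gene ZEB1 was lower by -1.74 in F6. Of 6 mesenchymal markers tested, 3 were called lower in F6 (8.15% over all genes), 1 in B7 and 0 in G6, and 0 were called higher. The list median was -0.43 in F6, -0.016 in B7 and 0.17 in G6. Pooled, 2 of the 6 were positive, among them ACTA2 (0.27), 4 were negative and 0 were called. In the pooled comparison the epithelial list had a median log2 fold change of 0.20 with 0 of 10 called, against a median of 0.0049 over all genes tested. The summed epithelial markers ran from 3711 to 5081 CPM in parental and from 3167 to 5622 CPM in knockout libraries.

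The receptor gene NRP1, which binds semaphorins and VEGF, was lower in B7 (1.54 and 2.07 CPM) and F6 (3.24 and 2.97 CPM) than in parental libraries (12.2 to 14.4 CPM), and G6 was at 10.8 and 13.6 CPM. Of the 15 semaphorin and receptor genes tested, 8 were called in B7, 7 in F6 and 1 in G6, and 0 in the pooled comparison. Over all genes the shares called were 17.7%, 17.2% and 2.82%. Of 16 laminin and integrin genes, 9 were higher and 1 lower in F6, led by LAMA3 (1.64). There were 5 higher and 4 lower in B7, and 1 higher and 0 lower in G6, and 0 of the 16 were called in the pooled comparison. Over all genes 9.08% were higher and 8.15% lower in F6, 9.1% and 8.62% in B7, and 1.06% and 1.76% in G6.

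In clone B7 a single chromosome stood apart. The 503 tested genes of chromosome 8 had a median log2 fold change of 0.47 against parental cells, a 1.38-fold higher level, with 359 called higher, 2 called lower and 462 on the positive side. On the other chromosomes the median in B7 lay between -0.032 and 0.018. The rise spanned the chromosome: the medians of 15 bins of 10 Mb ran from 0.35 to 0.58. The library medians were 0.44 and 0.47 unstressed and 0.44 and 0.47 in tunicamycin, against -0.028 to 0.024 in all F6 and G6 libraries. Chromosome 8 holds 3.45% of the genes tested and gave 27.1% of the genes called higher in B7. DNA copy number was not measured here. In the pooled comparison the chromosome's median was 0.18, so genes of chromosome 8 carry the value of 1 clone of 3. Without them the pooled comparison called the same 3 genes.

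**Figure D4:**
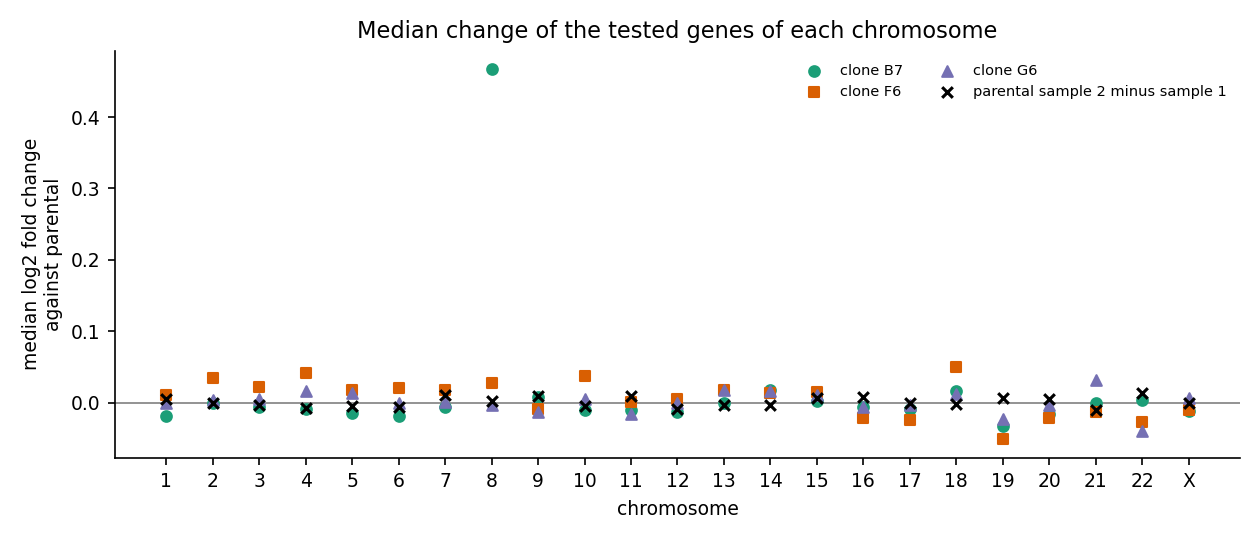
Median log2 fold change of the tested genes of each chromosome for clones B7, F6 and G6 against the parental samples, and for parental sample 2 against sample 1. Chromosome 8 in B7 is at 0.47, and every other point lies within about 0.05 of 0.

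Clone B7 also had low levels of many zinc finger genes of chromosome 19. Of 148 tested genes there whose symbol starts with ZNF, 37 were called lower and 3 higher in B7, 20 of the 37 by more than 1 on the log2 scale. Over all genes 8.62% were called lower and 9.1% higher in B7, and over all 979 tested genes of chromosome 19, 13.0% and 4.60%. Among 194 ZNF genes elsewhere 7 were lower and 26 higher. That set includes genes of chromosome 8, such as ZNF704 (1.16), and was not compared without them. In F6 the chromosome 19 set had 10 higher and 6 lower, and in G6 3 and 1. Over all genes the shares were 9.08% and 8.15% in F6, and 1.06% and 1.76% in G6. ZNF266 was lower by -2.77, ZNF136 by -4.72 and ZNF530 by -4.17, and the values in tunicamycin were -2.25, -4.99 and -3.97. These genes form large families with similar sequences, so reads may be split between members. This set was chosen after its values were seen.

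Among the gene lists, the targets of p53 leaned upwards. Of 20 tested, 18 were on the positive side of the pooled comparison, with a median log2 fold change of 0.22 and 10 with an unadjusted p under 0.05, all higher, but 0 passed the threshold. Over all genes the median was 0.0049, with 7564 of 14564 on the positive side and 665 higher at an unadjusted p under 0.05. CDKN1A, which encodes the cell cycle inhibitor p21, stood at 116, 120, 129 and 124 CPM in parental libraries, 164 and 169 CPM in B7, 203 and 210 CPM in F6, and 143 and 126 CPM in G6, which reached into the parental range. Without clone G6, CDKN1A was called higher (0.61, adjusted p = 0.0142 by edgeR), the median was 0.25 and 19 of the 20 were positive. In IGF2BP3 knockout against the same parental libraries the median of the list was 0.17. By clone, 13 were called higher and 2 lower in B7, 11 and 0 in F6, and 2 and 1 in G6, against 9.1%, 9.08% and 1.06% of all genes called higher. Of the 13 in B7, 3 (TP53INP1, RRM2B and TNFRSF10B) lie on chromosome 8 and 10 do not. MDM2, the ubiquitin ligase that degrades p53, was higher in F6 (0.37) and not called in B7 (0.08) or G6 (-0.0035). BAX, a pore-forming apoptosis gene, was lower in G6 (-0.30).

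FSTL3 was the only called gene of the activin, TGF-beta and BMP list (1 of 21). Of the 21, 3 had an unadjusted p under 0.05, all lower, and of all 14564 genes 605 were lower at that p. By clone, 5 of the 21 were called higher and 3 lower in B7, 1 and 9 in F6, and 1 and 1 in G6. Over all genes the shares were 9.1% and 8.62%, 9.08% and 8.15%, and 1.06% and 1.76%. The activin ligand genes INHBA (0 to 0.336 CPM) and INHBB (0.042 to 0.244 CPM) were below the filter and were not compared. The tested ligand genes TGFB1 (-0.13), BMP4 (-0.05) and BMP7 (-0.08) were not called. The receptors and signal transducers were not called either, among them the type I activin receptor ACVR1B (0.11), the type II receptors ACVR2A (0.07) and ACVR2B (-0.04), and the signal transducers SMAD2 (0.03), SMAD3 (0.16) and SMAD4 (-0.01). Targets differed by clone. The feedback inhibitor SMAD7 was higher in B7 (1.10) and lower in F6 (-0.86), and ID1, ID2 and ID3, targets of BMP signalling, were lower in F6 (-0.52, -0.35 and -0.56).

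Of the mRNAs reported as targets of the family, none was called in the pooled comparison (0 of 19, median -0.0038). MYC averaged 562 CPM in parental and 527 CPM in knockout libraries (-0.09), and in B7 it was lower (-0.21) although it lies on chromosome 8. HMGA1, a chromatin architectural protein gene, was lower in B7 (-0.52) and G6 (-0.22) and higher in F6 (0.14), and the cyclin gene CCND1 followed the same order (-0.24, -0.23 and 0.12). CDK6 was higher in B7 (0.42) and G6 (0.47) and lower in F6 (-0.63). SLC2A1, the glucose transporter GLUT1, stood at 201 to 254 CPM in parental libraries and was lower in F6 (-1.23) and G6 (-0.39) but not in B7 (0.04). In the insulin and IGF list 0 of 18 were called. IGF1R was higher in B7 (0.61), and FOXO1, a transcription factor restrained by AKT, had a pooled value of 0.44 (adjusted p = 0.451 by edgeR), with 13.6 CPM on average against 10.0 CPM and no overlap between the groups. The 18 writers, erasers and readers of m6A had a median of 0.033 with 0 called, and the 2 called higher in B7 on chromosome 8 were VIRMA and YTHDF3.

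Glycolysis genes lay slightly low: 16 of 19 were negative, with a median of -0.07 and 0 called. By clone, 8 were called lower and 1 higher in B7, 8 lower in F6 and 2 lower in G6. Over all genes 8.62%, 8.15% and 1.76% were called lower. PKM, the last kinase of the pathway, had -0.16 in B7, -0.17 in F6 and -0.00094 in G6. ENO2 had -0.26, -0.37 and -0.17, and the last value was not called. ALDOA was counted at only 1.02 CPM, and it overlaps another gene of the same strand in GENCODE 29, so its value is uncertain.

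The unstressed levels of stress genes were near parental. Of 16 endoplasmic reticulum chaperone genes of the ATF6 arm none was called in the pooled comparison (median -0.07), and 10 were called lower in B7, 0 in F6 and 1 in G6, against 8.62%, 8.15% and 1.76% of all genes. In F6, 1 was called higher. HSPA5 was at -0.19 in B7, -0.02 in F6 and -0.10 in G6. Of 14 genes of the PERK arm 0 were called (median 0.04). In F6, 5 of them were lower, among them PHGDH (-0.48) and PSAT1 (-0.22) of serine synthesis. ATF3, a stress-induced transcription factor gene, was higher in B7 (0.63) and F6 (0.52).

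Interferon-stimulated genes were mostly higher in F6 and mostly lower in B7, where called. Of 15 tested, 7 were called higher and 0 lower in F6, 1 higher and 5 lower in B7, and 0 higher and 2 lower in G6, with 0 called in the pooled comparison and 10 of the 15 called among the clones. Over all genes, 9.08% were called higher in F6, 8.62% lower in B7 and 1.76% lower in G6, and the share called among the clones was 30.3%. ISG15, a ubiquitin-like modifier, had 0.34 in F6, -0.45 in B7 and -0.39 in G6, and OASL had 0.86, -1.09 and -1.09. RIGI, a sensor of viral RNA, was higher in F6 (1.09). In B7 the sensor adaptor gene STING1, named after its values were seen, was lower by -2.47.

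Genes of DNA replication and mitosis were close to parental levels (0 of 26 called, median -0.016). MKI67, a proliferation marker, averaged 953 CPM in parental and 955 CPM in knockout libraries. F6 had 7 lower (8.15% over all genes) and 1 higher, among the lower MCM2 (-0.21), MCM5 (-0.20) and MCM7 (-0.21) of the replicative helicase. B7 had 4 higher and 1 lower. The 4 of 26 stood near the share of all genes called higher in B7 (9.1%), and they included MCM4 (0.53), which lies on chromosome 8. The 44 respiratory chain subunits (median -0.012), 17 cholesterol synthesis genes (-0.012) and 9 Wnt targets (-0.18) had 0 called in the pooled comparison, and so did the 10 replication-dependent histone genes (-0.17). Among the Wnt targets, AXIN2, a feedback inhibitor of the pathway, was lower in F6 (-1.48).

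Without clone G6 the pooled comparison called genes of several lists in which none was called with all 3 clones. That fit called 161 of 14256 genes (1.13%) and holds only B7 and F6, which share a guide. In that fit the list calls were, beside CDKN1A, the hexokinase gene HK1 (-0.41) and PKM (-0.17) of glycolysis, both lower, and the stress factor gene ATF3 (0.57) of the PERK arm, higher. The semaphorin list had NRP1 lower (-2.45) and SEMA3C (0.58) and PLXNB2 (0.20) higher, so 3 of 15. The laminin list had LAMB1 lower (-0.64) and LAMC1 higher (0.22), so 2 of 16. There was 1 call each for the interferon-stimulated gene DDX60 (0.45), the mitosis gene CDC20 (-0.17) and the epithelial marker ESRP1 (0.58), the last on chromosome 8. The lists of reported targets, insulin signalling, m6A factors, Wnt targets, respiratory chain subunits, cholesterol synthesis, chaperones and histones had 0 called in that fit by edgeR, with at most 5 genes higher and 2 lower per list at an unadjusted p under 0.05. Of all 14256 genes, 1346 were higher and 1106 lower at that p. The median was -0.11 for glycolysis, 0.27 for epithelial markers, 0.13 for laminins and integrins and 0.0030 over all genes.

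**Figure D5:**
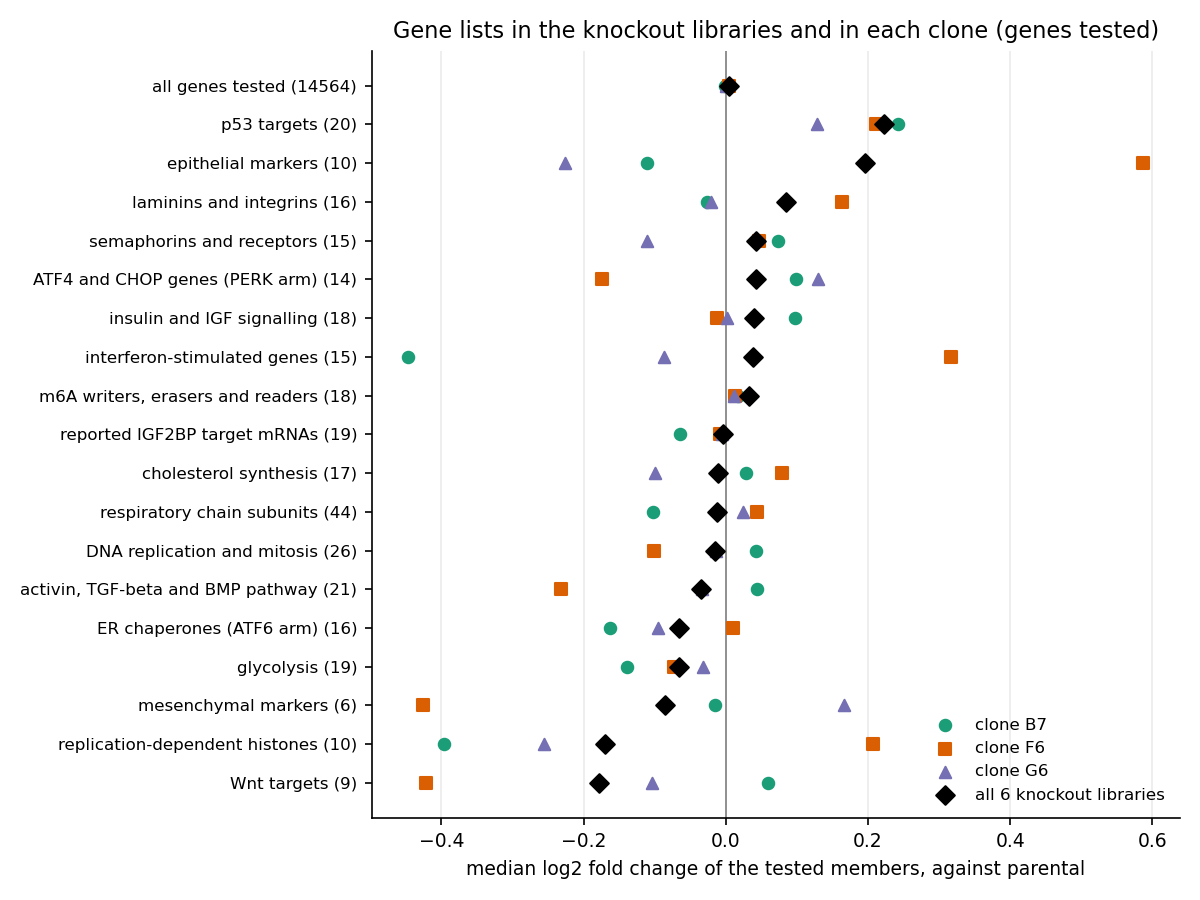
Median log2 fold change against parental of the tested members of each gene list (number in brackets), in all 6 knockout libraries (black diamonds) and in each clone. The pooled median of the p53 targets is 0.22, and the epithelial, interferon and histone lists lie on opposite sides of 0 in F6 and B7.

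The pooled result can be set beside a pair of other comparisons. In tunicamycin, which blocks N-glycosylation and loads the endoplasmic reticulum with unfolded proteins, the same 6 against 4 comparison called 1 gene of 14419 (0.00694%), IGF2BP2 itself. Against IGF2BP3 knockout, made in the same parental cells with other guides, the unstressed IGF2BP2 knockout had 165 of 14250 genes called (1.16%), 81 higher and 84 lower. IGF2BP2 was lower by -0.95 in that comparison. FLOT1 was not called there (-0.10). With counts summed to 1 value per line, 1 gene was called in that comparison.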

How the data were processed

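Poly(A) RNA of 10 unstressed libraries was compared, 6 of IGF2BP2 knockout and 4 of parental cells. The authors deposited raw counts per gene. Per the submitters' processing notes they used STAR 2.7.5c and hg38. The counting tool, the annotation and the use of strand in counting are not given in the sources used here, so overlapping and antisense genes are uncertain. Per the labels' protocols, the kit was directional and reads were paired, 100 bases long. The table lists 60660 identifiers, of which 60463 matched a symbol and 22333 were at 0 in all libraries.

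Each comparison was fitted to its own libraries with edgeR 4.0.16 in R 4.3.3, with TMM, filterByExpr, the quasi-likelihood test and Benjamini-Hochberg adjustment at a threshold of 0.05, and the replicate number as a term. The pairing comes from the numbers in the titles: deviations of same-numbered libraries correlated with r from 0.43 to 0.62 in 10 of 10 pairs. A second fit had the 5 lines and the number as terms, for contrasts of each clone against the mean of the parental samples. SE is that implied by the F statistic. CPM was scaled by TMM over all 32 libraries. Replicate libraries of 1 line differed by more than sampling noise (chi-square per degree of freedom 5.33 to 11.6), and same-numbered libraries of the 2 parental samples by less (1.70 to 2.81), so none was treated as a duplicate.

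Genes were named by membership in the family or in 21 lists, by being called, with a symbol, a mean count of at least 100 and groups that do not overlap (up to 12 per direction), then by the smallest p up to 20, by the largest range between clones among genes called among them (6), and by position (5 tested genes on each side of IGF2BP2). Members and lists were chosen with earlier results of these data known, and lists are described by counts and medians only. Positions and guide matches come from GENCODE release 29 on GRCh38. The scripts were tested on simulated counts. Alternatives were no replicate term, DESeq2 1.42.0 size factors in edgeR, other filters, DESeq2, counts summed per line, limma 3.58.1 voom with line as a random effect, each replicate number alone, and each clone, parental sample and library left out. Leaving out chromosome 8 genes, and the lists and non-overlapping groups without clone G6, were chosen after seeing the data. A named gene called in neither fit counted as unchanged whatever its sign. The values of 1 list gene are not reported here.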

Additional observations from a re-analysis of the deposited data

Results flagged for a closer look

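Within groups, 3 of 74 sets of library values (37 named genes, 2 groups each) had 1 library far from the others, and chance gives about 1 in 20. CCNG1 stood at 117.2 CPM in library 1 of parental sample 1, above the other parental libraries. MAP3K13 stood at 18.38 CPM in library 2 of clone G6, below the other knockout libraries. PPP1R26 stood at 30.9 CPM in library 2 of clone B7, below the other knockout libraries.

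The clones differed from each other in their effect against the same parental samples, by the test among the 3 clones in the fit by line. SEMA3A had an adjusted p of 6.83e-12 by edgeR's quasi-likelihood test and a higher level in 4 of 6 knockout libraries. The adjusted p by edgeR was 5.75e-11 for FGF9, 4.44e-10 for TARID, 1.38e-09 for PXDN, 4.39e-09 for DCLK1 and 8.84e-09 for ZNF134. These 6 genes were picked for their range between clones, so the values describe them.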

How the results depend on the processing

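IGF2BP2 was called in 25 of 25 alternatives, with log2 fold changes from -1.11 to -0.93. FSTL3 was called in 10 and FLOT1 in 8. The pooled count of 3 was 2 with no replicate block, 3 with DESeq2 size factors, with a mean CPM of at least 1 or without chromosome 8 genes, 412 with no filter on low counts, 36 by DESeq2 with the replicate block, and 1 with counts summed per line, with voom and line as a random effect, or in replicate number 1 or 2 alone. With clones, parental samples or libraries left out it ran from 1 to 161, the highest without clone G6, then 36 without clone F6 and 1 without clone B7.

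In tunicamycin (1 gene) the count was 492 with no filter, 41 by DESeq2 with the replicate block, 0 summed per line (by edgeR) and 1 to 94 with lines or libraries left out. Against IGF2BP3 knockout (165) it was 84 with no replicate block, 958 with no filter, 567 by DESeq2 with the replicate block, 1 summed per line, 22 with voom, and 25 to 439 with lines or libraries left out. Without the replicate block B7, F6 and G6 had 594, 448 and 12 genes and the test among clones 1154. Without a filter G6 had 709 and the parental samples 10. With 1 library left out, B7 ran from 1042 to 3162, F6 from 945 to 3014, G6 from 180 to 457, the test among clones from 2932 to 4813, and the parental samples from 0 to 16. The causes were not tested.

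With 2 libraries per clone, spread within a clone rests on 1 pair, and differences of the size of the median absolute log2 fold change (0.079) are below what was called. No result changed sign past the threshold.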
